A study of Mus musculus with 2 samples.

Results

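Imprinted genes are expressed from only 1 of the parental copies, either the maternal or the paternal one, in some or all tissues. The set described here holds 39 mouse imprinted genes, listed by symbol, of which 38 had a row among the 43346 Ensembl genes of the deposited tables. They lie on 9 chromosomes, 15 of them on chromosome 7, in 11 clusters and as 8 single genes. The remaining gene, the long noncoding RNA gene Peg13, was not analysed here. Total RNA was sequenced from the midbrain of 2 mouse embryos of the inbred B6NCrl strain at 14.5 days of development, with no treatment and 1 library per embryo. Both libraries form a single group and are called embryo 1 and embryo 2. The labels record 1 pup per midbrain and a separate collection day for each, with 10 ng of RNA longer than 200 nt and spike-in RNAs in each library. They give the sex as pooled, whereas the Y-linked gene Eif2s3y had 1901 counts in embryo 1 and 0 in embryo 2, and Xist, the RNA of the inactive X chromosome, had 3 counts in embryo 1 and 20808 in embryo 2. With 1 library per embryo no test between the embryos was possible, so single genes are described by a fixed rule of size and sex, collection day and library cannot be told apart.

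Imprinting rests on DNA methylation placed in the egg or the sperm at control regions, which then sets which copy of the neighbouring genes is read. Many imprinted genes regulate growth, and in the brain several are known for roles in neurons, feeding and behaviour. In clusters, protein-coding genes of 1 parental copy often lie next to a long noncoding RNA read from the other. The strain is inbred, so the reads do not separate the copies, and the expressed copy named for each gene below is background knowledge and not a measurement.

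Levels are the authors' TPM, an abundance of transcripts that is divided by length and scaled to the same total in each library, and detection means that both embryos reach a TPM of 1. By this rule 35 of the 38 genes were detected, against 33.6% of all genes and 59.5% of protein-coding genes. Both embryos exceeded a TPM of 10 for 26 genes (68.4%), against 39.2% of protein-coding genes, and a TPM of 100 for 12 genes (31.6%), against 6.65%. The median level was a TPM of 38.5, with 39.2 in embryo 1 and 37.4 in embryo 2, next to 4.67 over protein-coding genes and 17.3 over detected genes. The genes together took 1.32% of all gene TPM in embryo 1 and 1.6% in embryo 2, and Nnat alone made up 49.4% and 52.6% of these shares. The tables held 31687050 gene counts in embryo 1 and 29182388 in embryo 2, and a count of 3, used as the floor of what could be seen, amounted to a TPM of 0.101 for the gene Ndn in both. Of the region markers, 7 of 7 for midbrain, 0 of 3 for forebrain and 0 of 3 for hindbrain were detected in both embryos. The midbrain markers ranged widely, with Otx2 at a TPM of 99.9 in embryo 1 and 76.3 in embryo 2 but Wnt1 at 3.28 in embryo 1 and 1.01 in embryo 2. The forebrain marker Emx1 lay close to the limit, at 0.91 in embryo 1 and 1.24 in embryo 2.

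**Figure D1:**
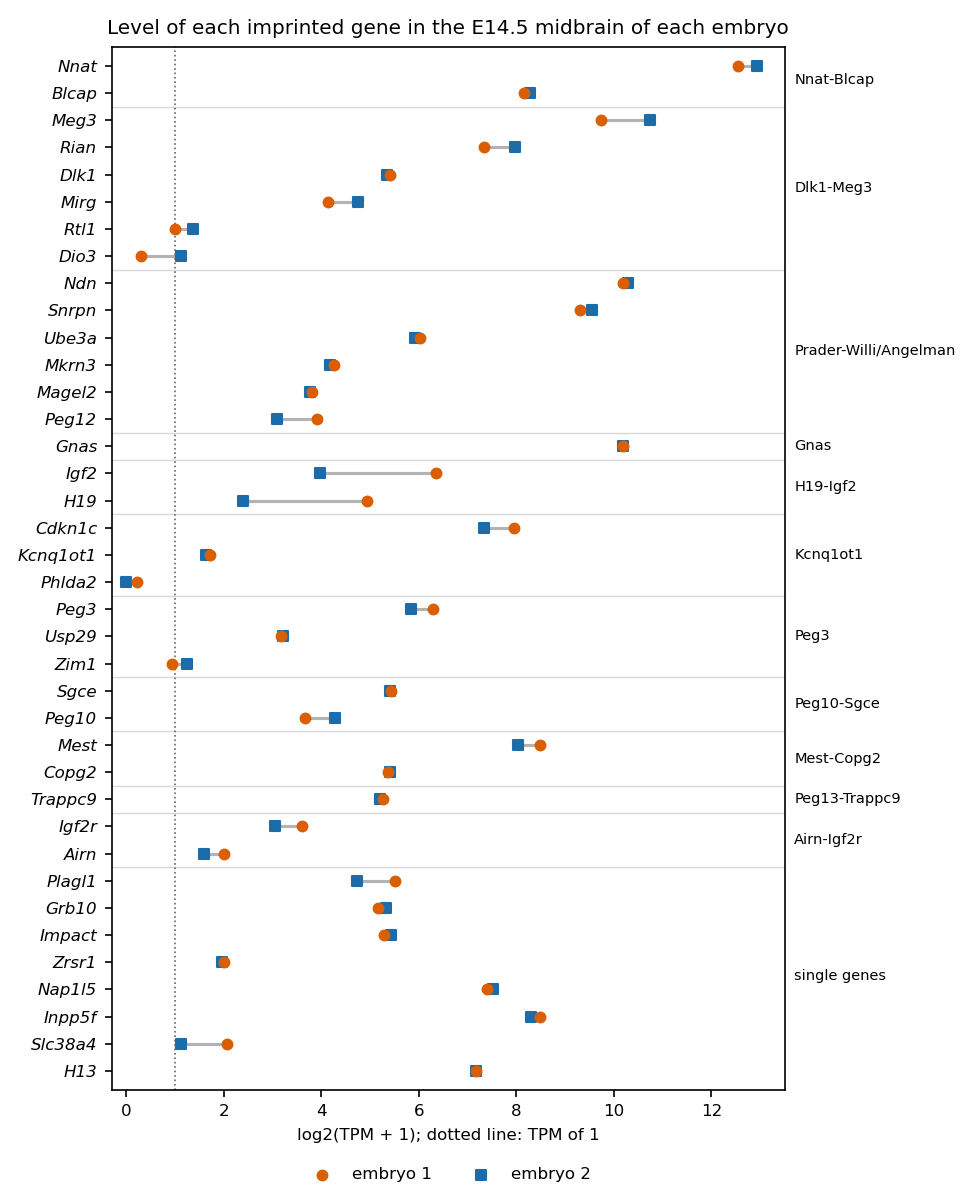
Level of 38 imprinted genes as log2(TPM + 1) on the x axis, grouped by cluster, with circles for embryo 1, squares for embryo 2 and grey lines joining them. Nnat stands furthest right, Dio3, Phlda2 and Zim1 fall below a TPM of 1 in at least 1 embryo, and the widest gaps are those of Igf2 and H19.

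Neuronatin led the set. Nnat, a small membrane protein of the endoplasmic reticulum in neurons that is read from the paternal copy, had a TPM of 6010 in embryo 1 and 7773 in embryo 2 and ranked 7th among all genes by mean level. It lies at chr2:157560078-157562522 on the forward strand, inside an intron of Blcap on the reverse strand. Blcap, a small protein linked to growth arrest and apoptosis, had a TPM of 284 in embryo 1 and 311 in embryo 2, so that Nnat stood 21.1-fold above its host in embryo 1 and 25.0-fold in embryo 2. Nnat was spread over a pair of coding transcripts. The 2-exon Nnat-205, which codes for 54 residues, took 49.3% of the gene's transcript TPM in embryo 1 and 53.9% in embryo 2. The 3-exon Nnat-202, which codes for 81 residues, took 44.1% in embryo 1 and 39.5% in embryo 2. These are the lengths of the known beta and alpha forms of neuronatin, which differ by the middle exon.

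Ndn, Gnas and Meg3 came next in level. Ndn encodes necdin, a MAGE family protein of postmitotic neurons, is paternally expressed and lies at chr7:62346569-62350262. It had a TPM of 1158 in embryo 1 and 1253 in embryo 2. Gnas encodes the stimulatory G protein alpha subunit and had 1163 in embryo 1 and 1168 in embryo 2, the closest match between the embryos among the 4 highest genes of the set. Meg3, a maternally expressed long noncoding RNA, had 845 in embryo 1 and 1697 in embryo 2, so its rank in this group differed by embryo.

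The 250 bases ahead of the RefSeq start of Nnat, Ndn and Meg3 are printed because these genes are among the 4 highest of the set and Meg3 starts the RNA unit that differs between the embryos. Gnas, also among the 4 highest, is not printed, and none of its RefSeq promoter windows held either motif marked below. The printed bases come from RefSeq on GRCm38.p6, the build of the files. Capitals mark GCATGCGC, the core of the motif of NRF1, a factor of CpG-rich promoters, in Nnat and Ndn, and TGCCGC, the motif of the imprint-protecting zinc finger protein ZFP57, in Meg3, where it is read on the reverse strand as GCGGCA.
Nnat, chr2:157559828-157560077, forward strand: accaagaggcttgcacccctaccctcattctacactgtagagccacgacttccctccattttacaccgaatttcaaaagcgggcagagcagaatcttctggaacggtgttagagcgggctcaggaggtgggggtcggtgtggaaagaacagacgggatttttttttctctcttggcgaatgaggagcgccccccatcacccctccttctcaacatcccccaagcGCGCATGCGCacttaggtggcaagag
Ndn, chr7:62348027-62348276, forward strand: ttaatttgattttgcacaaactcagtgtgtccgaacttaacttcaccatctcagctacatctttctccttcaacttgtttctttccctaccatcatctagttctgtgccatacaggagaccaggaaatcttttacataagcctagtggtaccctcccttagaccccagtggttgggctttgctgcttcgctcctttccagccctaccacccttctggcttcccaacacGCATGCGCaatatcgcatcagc
Meg3, chr12:109540746-109540995, forward strand: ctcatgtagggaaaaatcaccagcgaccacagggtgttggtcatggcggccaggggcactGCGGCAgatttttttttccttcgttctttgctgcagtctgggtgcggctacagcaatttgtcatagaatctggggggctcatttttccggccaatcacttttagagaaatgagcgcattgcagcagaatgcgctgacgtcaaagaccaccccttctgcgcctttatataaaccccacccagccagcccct
In Nnat the forward and the reverse match overlap, which gives the 10 capitals. Both strands were searched, and a gene was counted where any of its promoter entries held the motif. GCATGCGC was present for 2 of the 31 imprinted genes with a RefSeq promoter entry (6.45%), against 2.56% of 27025 genes, and TGCCGC for 6 of the 31 (19.4%; Copg2, Meg3, Mest, Nap1l5, Plagl1 and Zim1), against 9.84%. Per promoter entry, GCATGCGC was present in 2 of 46 for imprinted genes (4.35%), against 2.26% of 32851. TGCCGC was present in 7 of the 46 (15.2%), against 8.68%. These windows of imprinted genes held a median of 10 CG pairs, against 6 over all promoters. Both motifs contain CG pairs, so the shares are a description and no test. The RefSeq start of Ndn lies 1708 bases inside the gene model of GENCODE M21, whose Ndn transcript is also longer than the 1652 bases listed in the deposited table.

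The Dlk1-Meg3 cluster on chromosome 12 reads protein-coding genes from the paternal copy and a chain of long noncoding RNAs, Meg3, Rian and Mirg, from the maternal one. The noncoding RNAs host many miRNAs and small nucleolar RNAs. Ratios between the embryos come from the authors' expected counts, scaled by the TMM method, for genes with at least 100 counts summed over both embryos, with a 95% interval that covers counting error only. A fold names the embryo with the higher value, and log2 ratios are embryo 1 over embryo 2. All 3 host RNAs were higher in embryo 2, whereas 49.4% of all genes compared were higher in embryo 1. Meg3 (chr12:109541001-109571726) was 1.88-fold higher in embryo 2 (interval 1.85 to 1.90), at 32134 counts in embryo 1 and 54392 in embryo 2. Rian (chr12:109603940-109661716), the host of box C/D small nucleolar RNAs, had a TPM of 161 in embryo 1 and 249 in embryo 2 and was 1.67-fold higher in embryo 2 (1.62 to 1.74). Mirg (chr12:109729764-109749460), the host of a further run of miRNAs, had 16.6 in embryo 1 and 25.8 in embryo 2, and was 1.76-fold higher in embryo 2 (1.54 to 2.02). The log2 ratios were thus -0.91 for Meg3, -0.82 for Mirg and -0.74 for Rian. The central 95% of all genes compared ran from -0.80 to 1.16, so Meg3 and Mirg lay below it and Rian inside it. Of 10 neuronal markers, 8 were also higher in embryo 2, with a median log2 ratio of -0.18 against -0.01 over all genes. Among the 8, Tubb3 (0.05) and Elavl4 (0.10) turned to embryo 1 when ratios were taken from TPM. The part of such differences in the ratios of the host RNAs was not tested, and in whole tissue fewer cells of a type and less RNA per cell cannot be told apart.

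Of the protein-coding genes of the same cluster, only Dlk1 and Rtl1 had enough counts to be compared. Dlk1, a Notch-like membrane ligand, had a TPM of 41.2 in embryo 1 and 40.0 in embryo 2, with a log2 ratio of 0.01. Meg3 therefore stood 20.5-fold above Dlk1 in embryo 1 and 42.5-fold above it in embryo 2. Rtl1, a protein derived from a retrotransposon and known for its role in the placenta, was near the detection limit, at 1.01 in embryo 1 and 1.59 in embryo 2. Its 121 counts in embryo 1 and 190 in embryo 2 made it 1.74-fold higher in embryo 2 (1.38 to 2.20). The miRNA genes Mir127, Mir136, Mir431, Mir432, Mir433 and Mir434 lie over Rtl1 on the opposite strand. Without strand the Rtl1 counts cannot be told apart from those of RNA read from that strand. Dio3, the deiodinase that inactivates thyroid hormone, had 9 counts in embryo 1 and 36 in embryo 2 and was not detected in both.

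Meg3 reads were divided over many transcripts. Meg3-205, a 3-exon form from the first start, took 32.6% of the gene's transcript TPM in embryo 1 and 39.4% in embryo 2. Meg3-207, Meg3-211, Meg3-203 and Meg3-202 were the others at 10% or more in an embryo, each between 8.71% and 15.9%. A change in such shares alters the length by which counts are divided. The effective length of Meg3 was 1986 nt in embryo 1 and 1676 nt in embryo 2. Its log2 ratio was -1.01 by TPM and -0.91 by scaled counts. The scales also differ over all genes compared, with a median log2 ratio of 0.13 by TPM and -0.01 by scaled counts.

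RefSeq places 57 miRNA hairpins with 111 mature miRNAs between the start of Meg3 and the end of Mirg, with 54 of the hairpins on the strand of the host RNAs. The libraries held RNA longer than 200 nt, and the 50 hairpin genes with a row of their own had 1 count in embryo 1 and 0 in embryo 2, so the host RNAs were measured and the miRNAs were not. A subset is shown because its genes lie within Rtl1 on the opposite strand, so that by position 11 mature miRNAs are complementary over their whole length to the Rtl1 transcript, a fit known in mice to direct cleavage of paternal Rtl1 RNA by maternal miRNAs. The seed, bases 2 to 8, is in capitals.
miR-431-5p: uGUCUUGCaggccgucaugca
miR-433-3p: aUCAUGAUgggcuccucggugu
miR-127-3p: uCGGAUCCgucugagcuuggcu
miR-434-3p: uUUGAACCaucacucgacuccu
miR-432: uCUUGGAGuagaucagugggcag
miR-136-5p: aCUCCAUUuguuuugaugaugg
These 6 have different seeds. Across the cluster 18 of the mature miRNAs shared their seed with another, in 9 seed pairs. Examples from the miR-379 stretch between Rian and Mirg are the following.
miR-379-5p: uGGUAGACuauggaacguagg
miR-1193-5p: uGGUAGACcggugacguaca
miR-379-3p: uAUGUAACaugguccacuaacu
miR-411-3p: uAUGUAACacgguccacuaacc
The first pair shares GGUAGAC and the second AUGUAAC, while miR-411-5p, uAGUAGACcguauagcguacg, has the seed AGUAGAC.

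The Prader-Willi and Angelman cluster on chromosome 7 is named for human disorders of feeding, growth and intellect that follow loss of its paternal or maternal copy. Its paternally read genes spanned a wide range of levels. Snrpn, which encodes the neural splicing protein SmN, had a TPM of 628 in embryo 1 and 745 in embryo 2, second to Ndn. Mkrn3, a ubiquitin ligase tied to the timing of puberty, had 18.1 in embryo 1 and 17.1 in embryo 2. Magel2, a MAGE family regulator of protein sorting, had 13.1 in embryo 1 and 12.6 in embryo 2. The single-exon neighbours Ndn, Magel2 and Mkrn3, which lie within one stretch of chromosome 7, thus differed widely in level whereas their log2 ratios between the embryos stayed between -0.26 and -0.06.

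Peg12, a member of the Frat family of Wnt pathway proteins at the end of the same stretch, was the exception. It had a TPM of 13.9 in embryo 1 and 7.53 in embryo 2, and its counts were 1.67-fold higher in embryo 1 (1.47 to 1.90). Ube3a, a ubiquitin ligase that mature neurons read from the maternal copy, had 64.1 in embryo 1 and 59.8 in embryo 2. Its paternal copy is silenced in neurons by the antisense RNA Snhg14, which had 287 in embryo 1 and 282 in embryo 2. The exons of Ube3a and Snhg14 share 1803 bases on opposite strands, and no source used here gives the strand of the reads, so reads in that stretch cannot be assigned to one of them by strand. Of Snrpn, 216 exon bases are also in Snurf, the upstream reading frame on the same transcript, whose own row held a TPM of 425 in embryo 1 and 500 in embryo 2.

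Gnas uses alternative first exons with different parental origin, and the transcript tables show which of them was in use. The transcripts that start at the first exon of the G protein took 94.3% of the gene's transcript TPM in embryo 1 and 94.0% in embryo 2, led by Gnas-208 with 85.8% in both. Those of the exon 1A region, read from the paternal copy, took 2.77% in embryo 1 and 3.35% in embryo 2. The maternal Nesp start region took 1.58% in embryo 1 and 1.63% in embryo 2, and the paternal XL start, which gives the extra-large form of the protein, took 0.193% in embryo 1 and 0.229% in embryo 2. Nearly all Gnas RNA of both midbrains was thus assigned to the start that is biparental in most tissues. Nespas, the paternal antisense RNA across the Nesp start, had a TPM of 4.60 in embryo 1 and 5.99 in embryo 2 and shares 988 exon bases with Gnas.

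Inpp5f, an inositol phosphatase, showed the opposite arrangement, with an internal start in the lead. Its level was 358 in embryo 1 and 316 in embryo 2. The transcripts that start inside the gene, known in mouse brain to be read from the paternal copy, took 97.1% of its transcript TPM in embryo 1 and 96.9% in embryo 2. Of these Inpp5f-208, which starts at position 128687546 of chromosome 7, held 91.5% in embryo 1 and 91.2% in embryo 2. The transcripts from the first exon of the full-length enzyme, which is biparental, took 2.81% in embryo 1 and 2.80% in embryo 2. The gene's level is therefore mostly that of the short form.

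Grb10, an adaptor that restrains insulin and IGF receptors, is known in mice to be read from an upstream start on the maternal copy in most tissues and from downstream starts on the paternal copy in neurons. Its level was a TPM of 34.9 in embryo 1 and 39.1 in embryo 2. By counts, the upstream start held 94.1% in embryo 1 and 92.0% in embryo 2, and the downstream starts 4.77% in embryo 1 and 7.34% in embryo 2, or 101 and 217 counts. By TPM the downstream share was 38.8% in embryo 1 and 25.1% in embryo 2, because the annotated downstream transcripts include the 430-base fragment Grb10-207, at 34.4% in embryo 1 and 13.9% in embryo 2 from 76 and 34 counts. The order of the embryos in the downstream share turned round between the scales. Grb10-201 led on both scales, with 60.1% of TPM in embryo 1 and 73.3% in embryo 2.

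**Figure D2:**
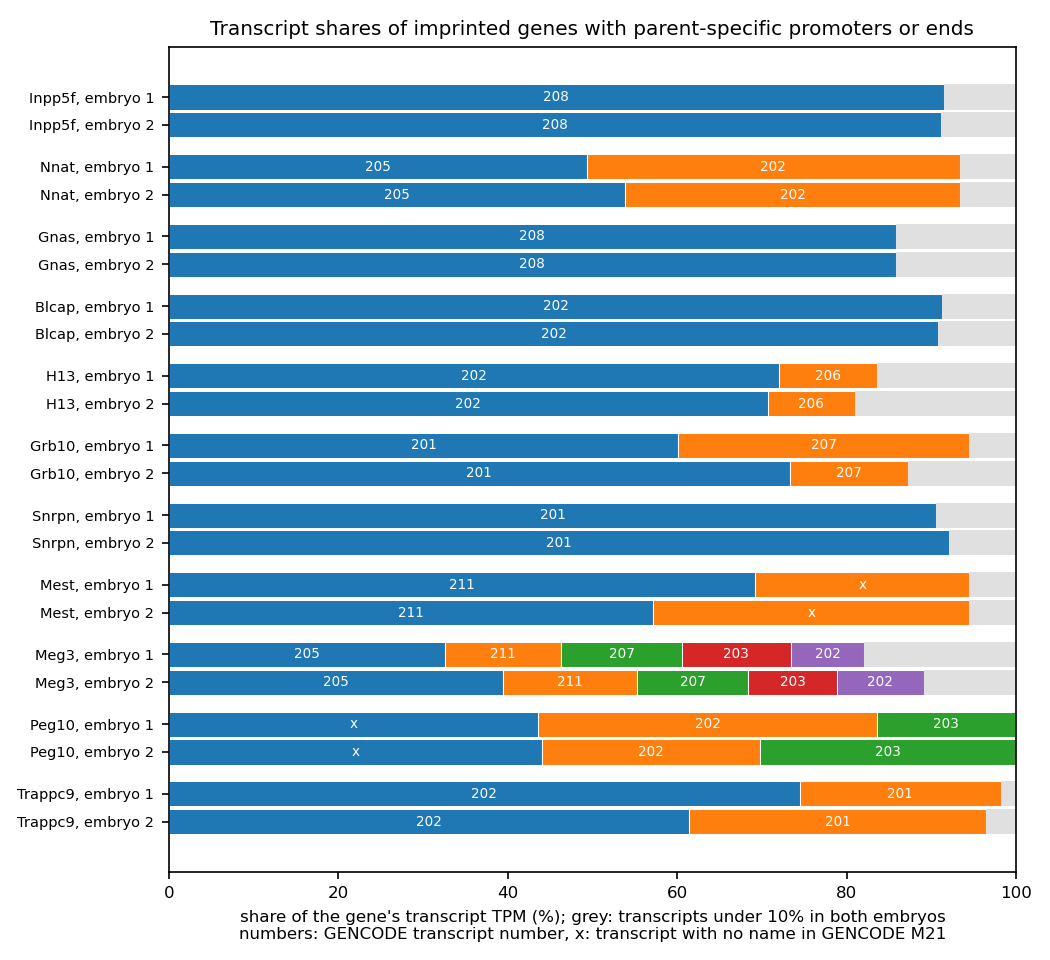
Share of each gene's transcript TPM (x axis, percent) taken by its transcripts at 10% or more in either embryo, as stacked bars with embryo 1 above embryo 2 for 11 genes. A single transcript fills most of the bar for Inpp5f, Gnas, Blcap and Snrpn, while Nnat is split in a pair and Meg3 over 5 transcripts.

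The remaining genes with parent-specific ends or promoters had one leading transcript in most cases. Blcap-202 took 91.3% in embryo 1 and 90.8% in embryo 2, and the transcripts from a more distal start took 0.341% in embryo 1 and 0.142% in embryo 2. H13, a signal peptide peptidase whose full-length RNA is read from the maternal copy, had a TPM of 142 in embryo 1 and 143 in embryo 2. H13-202 took 72.0% in embryo 1 and 70.7% in embryo 2. The transcripts that end before Mcts2, H13-203 and H13-206, together took 18.8% in embryo 1 and 19.7% in embryo 2. Mcts2, the paternally read retrogene in an intron of H13, had a TPM of 31.9 in embryo 1 and 32.2 in embryo 2. Snrpn-201 held 90.6% of Snrpn in embryo 1 and 92.1% in embryo 2.

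Mest, a membrane protein with a hydrolase fold that is paternally expressed in mesoderm and brain, had a TPM of 356 in embryo 1 and 263 in embryo 2. Mest-211 took 69.2% in embryo 1 and 57.2% in embryo 2, and a further transcript of 836 bases without a name in GENCODE M21 took 25.3% in embryo 1 and 37.3% in embryo 2. Copg2, the coatomer subunit gene that overlaps its end by 912 exon bases on the other strand, had 40.2 in embryo 1 and 41.5 in embryo 2. Trappc9, a trafficking complex subunit whose intron holds Peg13, had 37.7 in embryo 1 and 35.7 in embryo 2. Trappc9-202 led with 74.5% in embryo 1 and 61.4% in embryo 2, and Trappc9-201 held 23.7% in embryo 1 and 35.1% in embryo 2.

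Peg10 and Sgce share a bidirectional promoter region on chromosome 6 and are both paternally expressed. Sgce, epsilon-sarcoglycan, which is mutated in human myoclonus dystonia, had a TPM of 42.0 in embryo 1 and 41.5 in embryo 2. Peg10, a retrotransposon-derived protein best known from the placenta, had 11.7 in embryo 1 and 18.4 in embryo 2 and was 1.65-fold higher in embryo 2 by counts (1.51 to 1.79). The neighbours therefore did not move together, with Sgce 3.60-fold above Peg10 in embryo 1 and 2.26-fold above it in embryo 2. By TPM, Peg10-202 took 40.0% in embryo 1 and 25.8% in embryo 2, and Peg10-203 16.3% in embryo 1 and 30.2% in embryo 2. A 1477-base transcript without a name in GENCODE M21 took 43.6% in embryo 1 and 44.0% in embryo 2, from 134.7 and 212.9 counts. By counts Peg10-202, of 6667 bases, led with 588.3 in embryo 1 and 596.8 in embryo 2.

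Cdkn1c encodes p57, an inhibitor of cyclin-dependent kinases read from the maternal copy, and had a TPM of 245 in embryo 1 and 160 in embryo 2, and by counts was 1.39-fold higher in embryo 1 (1.34 to 1.43). Kcnq1ot1, the paternal antisense RNA that silences its cluster, had 3706 counts in embryo 1 and 3397 in embryo 2. Spread over an effective length of 84296 nt these made a TPM of 2.30 in embryo 1 and 2.11 in embryo 2. Phlda2, a growth-limiting gene of the same cluster that acts in the placenta, had 2 counts in embryo 1 and 0 in embryo 2 and was at or under the floor in both. Plagl1, a zinc finger factor that regulates other imprinted genes, had 44.6 in embryo 1 and 25.4 in embryo 2, and was 1.45-fold higher in embryo 1 by counts (1.37 to 1.53).

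In the Peg3 cluster, the zinc finger gene Peg3 had a TPM of 76.7 in embryo 1 and 56.6 in embryo 2. Usp29, the ubiquitin protease relative read in the other direction from the same promoter region, was lower, with 7.96 in embryo 1 and 8.33 in embryo 2. The maternally read zinc finger gene Zim1 had 57 counts in embryo 1 and 81 in embryo 2, and its TPM was 0.92 in embryo 1 and 1.36 in embryo 2. Among single genes, the paternally expressed Nap1l5, of the nucleosome assembly family, had 168 in embryo 1 and 184 in embryo 2, and the translation regulator Impact 38.2 in embryo 1 and 41.8 in embryo 2. Zrsr1, a splicing factor retrogene in an intron of Commd1, had 3.02 in embryo 1 and 2.89 in embryo 2. It shares 412 exon bases with Commd1, whose TPM was 217 in embryo 1 and 208 in embryo 2.

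IGF2 is a growth factor read from the paternal copy in most tissues. H19 is a noncoding RNA read from the maternal copy of the same locus. The IGF2 receptor Igf2r clears the factor from the cell surface. Igf2 (chr7:142650766-142666816) had a TPM of 80.4 in embryo 1 and 14.8 in embryo 2, from 2066 and 369 counts, and was 5.05-fold higher in embryo 1 (4.52 to 5.66). H19 (chr7:142575529-142578143) had 29.5 in embryo 1 and 4.24 in embryo 2, from 871 and 135 counts, and was 5.81-fold higher in embryo 1 (4.85 to 7.03). Both genes of the locus thus differed in the same direction and by ratios whose counting intervals overlap. The copy that gave either RNA in these midbrains was not measured. The ratio of Igf2 to H19 TPM was 2.72 in embryo 1 and 3.48 in embryo 2. Igf2r had 11.2 in embryo 1 and 7.22 in embryo 2, with Airn, the antisense RNA that silences its paternal copy, at 3.01 in embryo 1 and 2.02 in embryo 2 from 44 and 27 counts.

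The leading transcripts of Igf2 had similar shares in both embryos. Igf2-203, of 650 bases, codes for the 180-residue precursor. It took 37.7% of the gene's transcript TPM in embryo 1 and 36.5% in embryo 2, from 319.9 and 56.7 counts. Igf2-208, annotated as a processed transcript without a coding frame, took 31.3% in embryo 1 and 28.5% in embryo 2. Igf2-202, of 2503 bases, codes for the same 180 residues as Igf2-203 and took 19.7% in embryo 1 and 22% in embryo 2. By counts Igf2-202 led, with 730.6 in embryo 1 and 149.6 in embryo 2. Other genes with several transcripts had steady or shifting shares. Of Dlk1, the form of 385 residues, Dlk1-205, led with 54.5% in embryo 1 and 49.4% in embryo 2. Dlk1-210, annotated as a retained intron, took 22.7% in embryo 1 and 30.7% in embryo 2. The 312-residue Dlk1-203 took 14.8% in embryo 1 and 7.74% in embryo 2. Of Cdkn1c, Cdkn1c-201 took 79.5% in embryo 1 and 74.9% in embryo 2. The total of Sgce was almost the same in both embryos. Its coding Sgce-205 was at 46.3% in embryo 1 and 23.7% in embryo 2. The coding Sgce-202 was at 4.71% in embryo 1 and 23.8% in embryo 2, from 56.4 and 280.3 estimated counts. Sgce-206, annotated as subject to nonsense-mediated decay, was at 33.3% in embryo 1 and led with 36.1% in embryo 2. These shares are the authors' estimates from reads that fit several transcripts, without an interval.

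Across the set, 3 of the 35 genes with enough counts were at least 2-fold higher in embryo 1, against 3.35% of the 14011 genes compared, and 0 were at least 2-fold higher in embryo 2, against 1.43%. They were H19, Igf2 and Slc38a4, an amino acid transporter known from the placenta and liver, which had a TPM of 3.16 in embryo 1 and 1.16 in embryo 2 and a ratio of 2.46 (1.91 to 3.20). At 1.5-fold the counts were 4 in embryo 1, with Peg12 added, against 8.56% of genes, and 7 in embryo 2, against 5.65%. The 7 were Meg3, Mirg, Rtl1, Rian, Peg10, Zim1 and Grb10, of which 4 belong to the Dlk1-Meg3 cluster. On the log2 scale Grb10 had a ratio of -0.63 by counts but -0.52 with spike-in scaling and -0.17 by deposited TPM, and Zim1 had -0.65 by counts, -0.54 with spike-in scaling and -0.56 by deposited TPM, so both fell short of 1.5-fold on the other 2 scales. For each of the remaining 24 genes the embryos differed by less than 1.5-fold by counts.

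Markers of other cell types also differed between the libraries. Of the 13 genes listed for mesenchyme and meninges, 11 had enough counts, all 11 were higher in embryo 1 and 10 were at least 2-fold higher. Their summed TPM was 525.6 in embryo 1 and 73.9 in embryo 2, and of the sum in embryo 2 a TPM of 59.9 was the transcription factor gene Foxp1. The collagen gene Col3a1 had 187 in embryo 1 and 2.81 in embryo 2, and no gene of the list was at 0 in embryo 2, where Lum was lowest, at 0.08. The 6 choroid plexus genes summed to 205 in embryo 1 and 82.6 in embryo 2. Otx2, which is also on the midbrain list, is part of these sums, and the other 5 genes summed to 104.9 in embryo 1 and 6.21 in embryo 2. Ttr among them had 96.3 in embryo 1 and 0.37 in embryo 2. All compared markers of endothelium (5), pericytes (5), erythroid cells (7), microglia (5) and cell cycle (6) were higher in embryo 1. Their summed TPM was 122 in embryo 1 and 78.9 in embryo 2 for endothelium, 156 in embryo 1 and 64.5 in embryo 2 for pericytes, and 45.5 in embryo 1 and 22.02 in embryo 2 for microglia. The part of these differences in the ratios of Igf2, H19 and Slc38a4 was not tested.

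In all, 11 genes were higher in embryo 1 and 24 in embryo 2, against 49.4% of all genes compared that were higher in embryo 1, and the median log2 ratio was -0.09 against -0.01 over all genes. Scaling by the ERCC spike-in RNAs or taking ratios of TPM raised the median of all genes to 0.11 and 0.13. The split of the imprinted genes then became 18 higher in embryo 1 and 17 higher in embryo 2 on both scales. Counted from the median of all genes, it was 11 above and 24 below with the spike-ins and 10 above and 25 below with TPM. At 1.5-fold the spike-in scale gave 5 genes in embryo 1 and 5 in embryo 2, and the TPM scale 7 in embryo 1 and 5 in embryo 2. The median size of a log2 ratio, regardless of sign, was 0.28 for the imprinted genes and 0.23 for all genes compared.

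**Figure D3:**
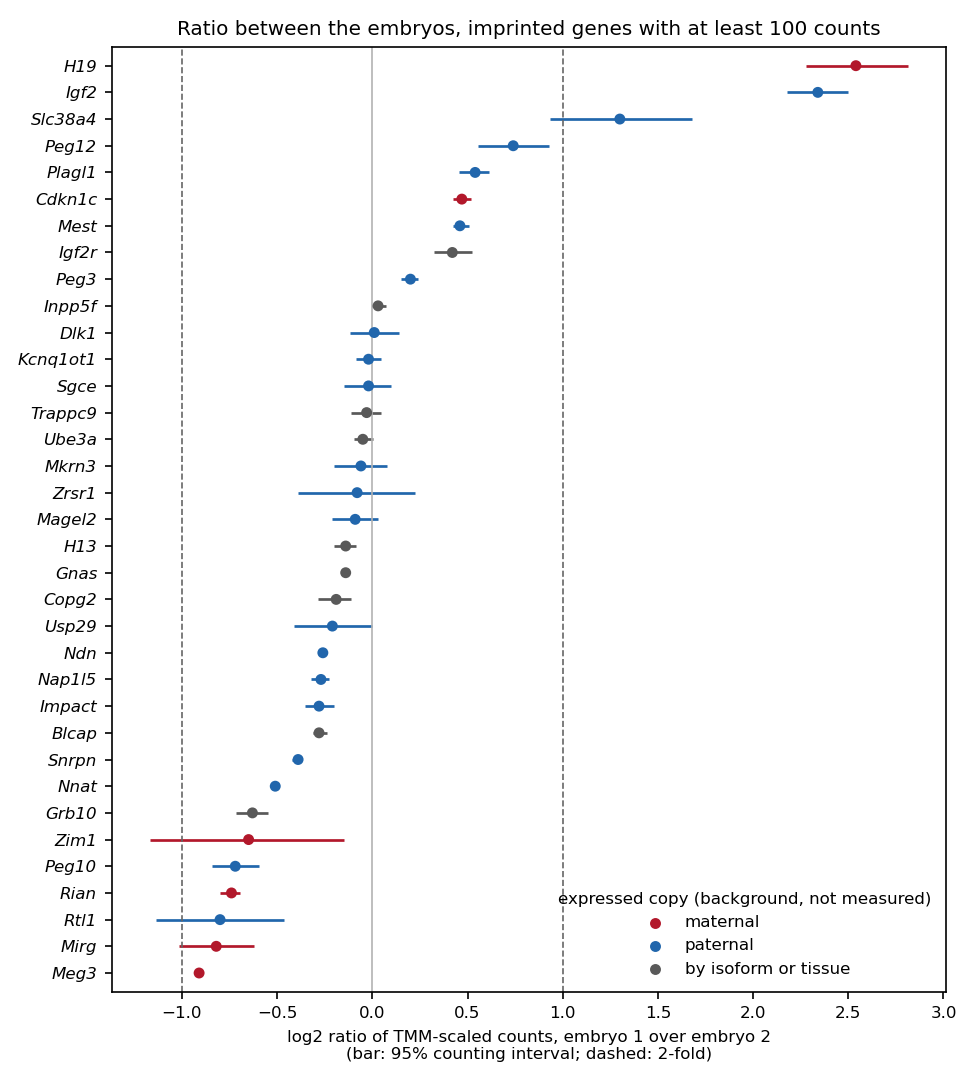
Log2 ratio of embryo 1 over embryo 2 (x axis) for 35 imprinted genes with at least 100 summed counts, with 95% counting intervals as bars, colours for the expressed parental copy as known from background, and dashed lines at 2-fold. H19, Igf2 and Slc38a4 lie beyond the right dashed line, and Meg3, Mirg, Rtl1 and Rian form the lower end.

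Grouped by the copy known to be expressed, the 22 paternally expressed genes had a median TPM of 26.3, the 7 maternally expressed genes 21.2 and the 9 genes with isoform- or tissue-dependent imprinting 61.9. In the maternal class H19 and Cdkn1c were higher in embryo 1, and Meg3, Rian, Mirg and Zim1 were higher in embryo 2, so the class had no common direction. Its median log2 ratio was -0.70 over 6 genes, that of the paternal class -0.07 over 20 genes and that of the third class -0.14 over 9 genes.

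**Figure D4:**
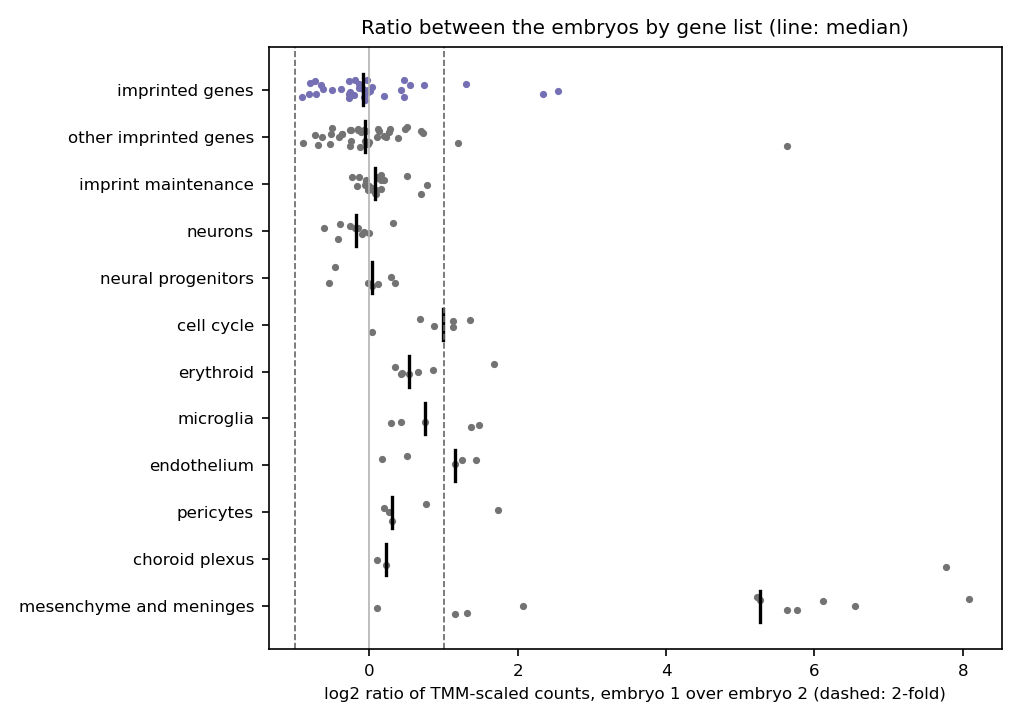
Log2 ratio of embryo 1 over embryo 2 (x axis) for the genes with at least 100 summed counts of 12 lists, 1 dot per gene with random vertical offset and a black line at each list's median. The imprinted genes centre at -0.09 with Igf2 and H19 to the right, and the mesenchyme and meninges list is centred at 5.27.

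**Figure D5:**
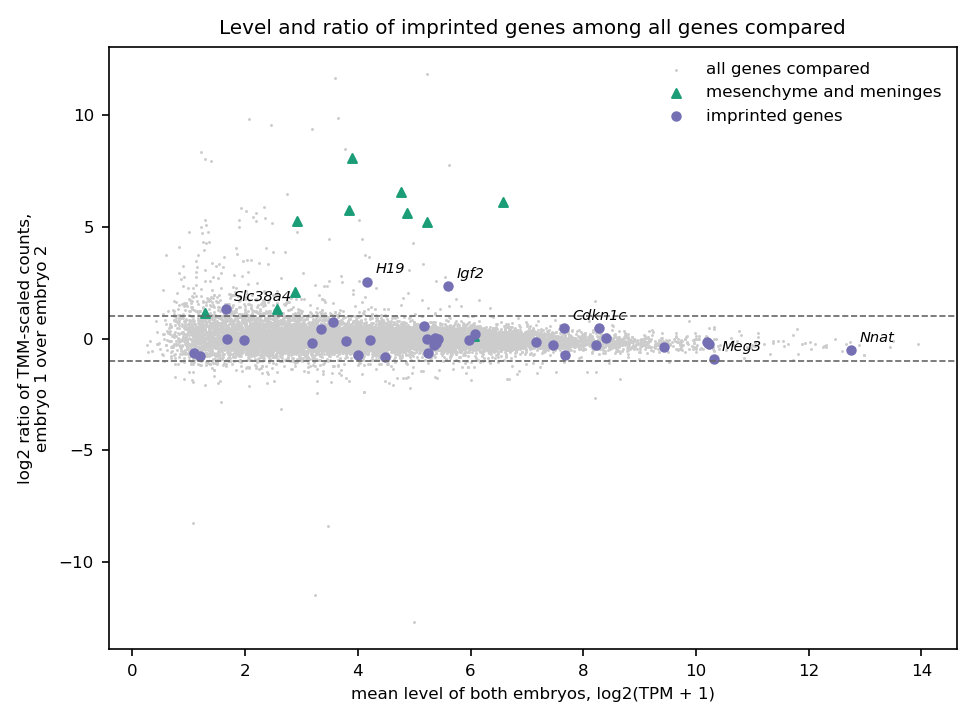
Log2 ratio of embryo 1 over embryo 2 (y axis) against mean level as log2(TPM + 1) (x axis) for the 14011 genes compared in grey, imprinted genes as circles and mesenchyme and meninges markers as triangles, with dashed lines at 2-fold. Igf2 and H19 lie above the upper line among few genes of their level, and Nnat, Ndn, Gnas and Meg3 lie at the right between the lines.

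A further list of 55 mouse imprinted genes, mostly with tissue-restricted or placental imprinting, was read the same way. Of its 53 genes with a row 39 were detected, against 33.6% of all genes and 59.5% of protein-coding genes. The median TPM of the 53 was 8.20, below that of the set above and above the median of all protein-coding genes. The highest were the antisense RNA Snhg14, the tetraspanin Cd81 (252 in embryo 1 and 250 in embryo 2), Commd1, the survival gene Bcl2l1 (167 in embryo 1 and 134 in embryo 2) and the histone chaperone relative Nap1l4 (126 in embryo 1 and 163 in embryo 2). Of 38 compared, 2 were at least 2-fold higher in embryo 1, against 3.35% of all genes compared, and 0 in embryo 2, against 1.43%. They were Dcn, the matrix proteoglycan decorin that is also on the mesenchyme list, with a TPM of 55.5 in embryo 1 and 1.00 in embryo 2, and the chloride channel Ano1, with 11.5 in embryo 1 and 5.53 in embryo 2.

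Factors that keep or erase imprints were mostly present. Of 25 listed, 23 were detected, against 33.6% of all genes and 59.5% of protein-coding genes. The median TPM of the 25 was 35.9. Of 23 compared 0 differed by 2-fold, against 4.78% of all genes compared, and at 1.5-fold 2 were higher in embryo 1, Uhrf1 by 1.71-fold and Zfp445 by 1.61-fold, against 8.56%. Among 23 genes these counts lie near the background. Zfp57, the zinc finger protein that binds methylated TGCCGC, had a TPM of 244 in embryo 1 and 222 in embryo 2. Its corepressor Trim28 had 254 in embryo 1 and 234 in embryo 2, and Zfp445, a second imprint-binding zinc finger protein, had 55.0 in embryo 1 and 30.8 in embryo 2. The maintenance methyltransferase Dnmt1 had 35.1 in embryo 1 and 32.6 in embryo 2. Dnmt3l, the cofactor of imprint placement in germ cells, had 0 counts in both embryos, and the oocyte factor Dppa3 had 1 count in embryo 1 and 0 in embryo 2.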

How the data were processed

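The authors deposited gene and transcript tables for each library, made from alignments to mm10 with GENCODE M4, as the deposited text records state. No source used here gives the quantifier or the strand of the reads. Expected counts, TPM and FPKM are the authors' values per the file headers, and maximum-likelihood TPM was the main unit. Symbols and coordinates came from GENCODE M21 (same assembly), which matched 98.0% of Ensembl rows. Numeric rows without a gene took 1.83e-05% of counts in embryo 1 and 4.64e-05% in embryo 2 and were left out, as were ERCC spike-ins (3.15% and 3.32%). Expected counts were scaled with TMM (edgeR 4.0.16), with DESeq2 1.42.0 size factors as an alternative and a prior count of 0.5. They were rounded only to fit the factors and for the interval, and compared by a rule of 2-fold and 100 summed counts. The 95% interval is an exact conditional binomial one and covers counting error only, since there is 1 library per embryo. The reads carry no molecular identifiers, so duplicate reads were not told apart and the interval can be too narrow even for counting error. The ratio step was tested on simulated counts that held counting error only. That test therefore does not cover differences between embryos or libraries, or duplicate reads. Genes were named by a fixed rule: each gene at a mean TPM of at least 10, each past 2-fold, and the undetected ones as counts, with transcripts at 10% or more. The imprinted genes and all lists were chosen with earlier results of these data known. Zim3 and Zfp264 of the further imprinted list had no row.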

Additional observations from a re-analysis of the deposited data

How the results depend on the processing

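With 2 libraries of 1 group, levels rest on 2 embryos and ratios on 1 library each. No paired analysis was possible because there is 1 group. The number of detected genes out of 38 was 35, and it was 34 with posterior mean TPM, 35 to 37 with either library alone, 36 at a TPM of 0.5 and 29 at 5. The median TPM of 38.5 was 23.5 as FPKM, a different unit, and 40.0 where genes had to reach a TPM of 1 in either embryo, which leaves out the low genes. Leaving out either library gave a median of 25.8 to 29.5 for maternally expressed genes and 17.8 to 28.2 for paternally expressed ones, since the middle gene changes, and a median leading transcript share of 72.0% to 73.3% against 69.7%. The 3 genes at least 2-fold higher in embryo 1 were 3 under every scaling tried and 4 with no minimum of counts or at 1.5-fold. The 0 genes at least 2-fold higher in embryo 2 became 1 with the ratio of deposited TPM, where Meg3 reached a log2 ratio of -1.01, 1 with a minimum of 10 counts or none, where Dio3 entered, and 7 at 1.5-fold. The median log2 ratio of -0.09 turned to 0.02 with spike-in scaling and with TPM and lay between -0.09 and -0.06 otherwise. Counts of 3 or fewer, as in Phlda2, cannot show a difference.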
